A study of Triticum aestivum with 6 samples.

Results

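Methyl cycle and adenine salvage enzymes use S-adenosylmethionine, or handle its products and the adenine nucleotides of the cell. On the wheat array, 6 of 61179 tested probe sets, for 5 of 102 genes with an informative name, made up this group under the names SAHH, PEAMT1, COMT1, APT1 and AdSS. They were selected on these gene names, and for SAHH and AdSS also on the probe set identifier. Any other probe set named SAHH or AdSS was left out. Their differences between the temperatures were already known, so those differences are a description and support nothing further. The study measured RNA in embryos of the bread wheat cultivar AC Domain, with 3 biological replicates from seeds developed at 13 °C and 3 from seeds developed at 28 °C. Until flowering all parent plants shared a chamber regime of 16 h light at 22 °C and 8 h darkness at 18 °C. They were then kept at 13 °C or 28 °C until the ripe spikes were cut, and the mature seeds took up water for 48 h. The labels do not give the number of embryos or plants behind a replicate, nor how far the seeds had germinated.

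S-adenosylmethionine is the methyl donor of most methyltransferases. Each transfer leaves S-adenosylhomocysteine, which inhibits many of these enzymes until SAHH splits it into adenosine and homocysteine. Plant cells also release adenine when methylthioadenosine, a by-product of polyamine, ethylene and nicotianamine synthesis, is recycled, and adenine phosphoribosyltransferase turns adenine into AMP.

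The values are RMA values on the log2 scale, that is, background-corrected, quantile-normalised levels summarised over the probes of a set, so each difference stands against the rest of the same arrays. Differences were taken as 13 °C minus 28 °C from a limma fit over all tested probe sets, with a threshold of 0.05 on the Benjamini-Hochberg adjusted p. Arrays correlated at 0.993 to 0.997 within a temperature and at 0.953 to 0.964 between temperatures, across probe sets. Spiked control probe sets did not stay level. The 27 hybridisation controls averaged 11.53 ± 0.51 at 13 °C and 10.90 ± 0.13 at 28 °C, and the 36 poly-A controls averaged 8.78 ± 0.89 at 13 °C and 8.33 ± 0.16 at 28 °C (SD, n = 3 each). RNA length was read from the signal at the 3-prime end of a transcript minus that at its 5-prime end, which was 7.24 ± 0.58 at 13 °C and 6.40 ± 0.04 at 28 °C for sucrose synthase, 3.20 ± 0.54 at 13 °C and 2.30 ± 0.17 at 28 °C for glucose-6-phosphate dehydrogenase, and -1.86 ± 0.24 at 13 °C and -1.78 ± 0.02 at 28 °C for ubiquitin. Embryo markers (Em, LEA1, Rab15 and the WGA2 lectin) were bright: all 10 of their probe sets lay above the unspiked controls, with list means per array of 11.45 to 12.08 at 13 °C and 9.94 to 10.56 at 28 °C. Of these 10, 8 were higher at 13 °C past the threshold and 0 lower, where 18.5% of all tested probe sets were higher. The count was 5 higher when arrays were scaled to either set of spiked controls. The 10 stand for 5 genes, with several probe sets for Em, so they are not independent. The 2 that did not pass were both of Rab15, whose remaining probe set passed with overlapping groups. Of 15 starchy endosperm marker probe sets, 5 lay above the unspiked controls, with list means of 5.14 to 5.21 at 13 °C and 5.28 to 5.30 at 28 °C. These means join dim and bright probe sets: AGP-S was at 10.57 at 13 °C and 10.45 at 28 °C and did not pass the threshold. The 2 lower at 13 °C were also bright, and both belonged to XIP-I, a xylanase inhibitor. The remaining probe sets above the unspiked controls were of storage proteins and did not pass. They were the glutenin LMW-m2 (7.25 at 13 °C, 7.15 at 28 °C) and Prolamin (5.74 at 13 °C, 5.55 at 28 °C). Of 5 probe sets matched by name to a list of aleurone genes (LTP3, PER1 and BMY1), 4 lay above the unspiked controls. Their list means were 7.41 to 7.63 at 13 °C and 7.53 to 7.56 at 28 °C. Whether these genes mark the aleurone alone was not tested. Past the threshold 1 was higher at 13 °C, of PER1 (12.71 at 13 °C, 11.14 at 28 °C), and 2 were lower. The other PER1 probe set (6.07 and 6.17) did not pass. One of the lower ones, BMY1 (3.26 at 13 °C, 4.26 at 28 °C), lay below the highest unspiked control mean at both temperatures, so its fall is uncertain. The part of these control, RNA length and marker differences in the results below was not tested.

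Every gene of the group had lower signals in embryos of seeds developed at 13 °C than in those developed at 28 °C. The falls ran from 9.30-fold for PEAMT1 to 1.63-fold for AdSS, and 4 of the 6 probe sets, those of SAHH, PEAMT1 and COMT1, fell by at least 2-fold, as did 5.62% of all tested probe sets. All 6 passed the threshold as lower and 0 as higher, where 33.5% of all tested probe sets passed, 15.1% as lower and 18.5% as higher. The 13 °C arrays lay below the 28 °C arrays without overlap on all 6, as they did for 18.7% of tested probe sets. The members' median difference was -1.82, against 0.06 over all tested probe sets. No filter on low values was applied, and all 6 probe sets exceeded the highest mean of the 23 unspiked control probe sets, 4.71, on every array. With embryos measured in bulk, fewer cells of a type and less RNA per cell cannot be told apart.

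**Figure D1:**
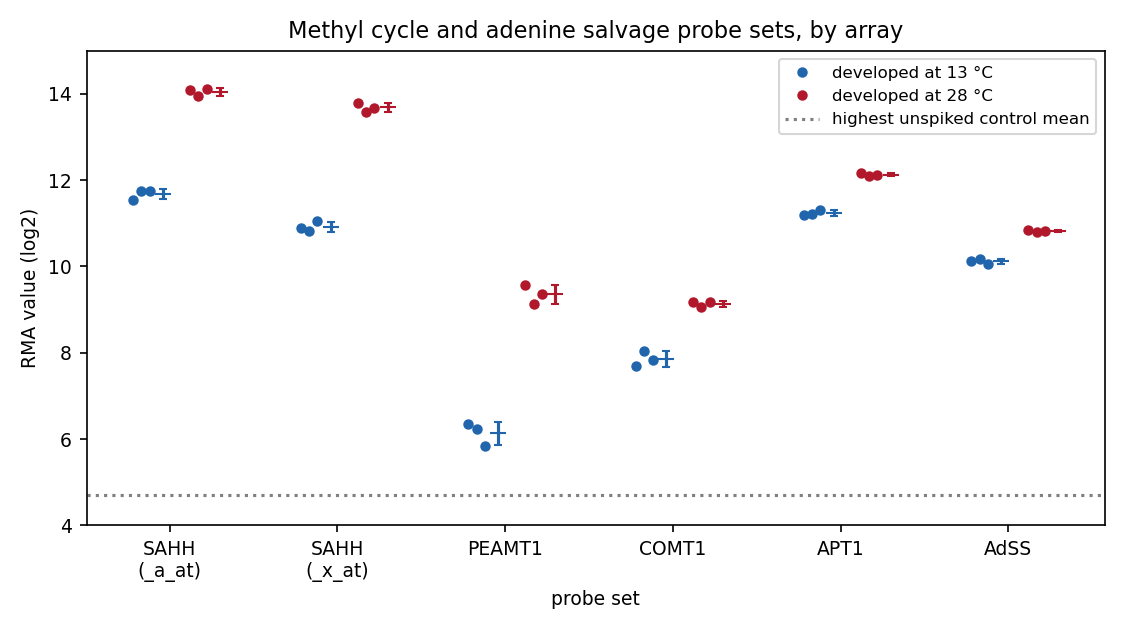
RMA values (log2, y axis) of the 6 probe sets (x axis) on each array, with mean and SD (n = 3) beside the points, 13 °C to the left of 28 °C. All 13 °C points lie below all 28 °C points of the same probe set, and the narrowest separation is 0.63 for AdSS.

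SAHH, S-adenosylhomocysteine hydrolase, was measured by a pair of probe sets. On the probe set with the suffix _x_at it was at 10.89, 10.82 and 11.05 in the 13 °C embryos, against 13.80, 13.59 and 13.68 in the 28 °C embryos. The nearest arrays of the groups were 2.54 apart, and the difference was -2.77 ± 0.10 (SE, n = 3 each), a 6.81-fold lower signal. On the probe set with the suffix _a_at it was at 11.55, 11.74 and 11.75 in the 13 °C embryos, against 14.10, 13.94 and 14.11 in the 28 °C embryos. This probe set also kept its groups apart, with a difference of -2.37 ± 0.10 (SE), a 5.16-fold lower signal. The _x_at suffix marks probes that may bind other sequences, and _a_at marks probes shared by variants of a gene. The 2 probe sets are both paired with SAHH and were not taken as independent measurements. They moved by unequal amounts: _x_at minus _a_at was -0.66, -0.92 and -0.70 within the 13 °C arrays and -0.30, -0.35 and -0.43 within the 28 °C arrays, which do not overlap. Of all tested probe sets, 0.873% had a difference at or below that of _x_at and 1.29% at or below that of _a_at.

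PEAMT1 (LOC543067) is phosphoethanolamine N-methyltransferase, which adds the methyl groups that lead to phosphocholine and so to choline and phosphatidylcholine. Its probe set, also an _a_at set, was at 6.35, 6.22 and 5.83 in the 13 °C embryos, against 9.57, 9.13 and 9.36 in the 28 °C embryos. No array came close to those of the other temperature, the nearest being 2.78 apart. The difference was -3.22 ± 0.16 (SE), the widest of the group, and 0.570% of tested probe sets fell as far or further. PEAMT1 also had the largest spread between replicates, with SDs of 0.27 at 13 °C and 0.22 at 28 °C.

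COMT1 (LOC543449), caffeic acid O-methyltransferase, methylates phenolic precursors of lignin. Its probe set, an _x_at set, was at 7.69, 8.05 and 7.84 in the 13 °C embryos, against 9.17, 9.05 and 9.18 in the 28 °C embryos. The 28 °C arrays lay closer together (SD 0.07) than the 13 °C arrays (SD 0.18), and the groups did not overlap. The difference was -1.27 ± 0.11 (SE), a 2.42-fold lower signal, and 3.98% of tested probe sets were as low or lower.

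APT1 (LOC543227), adenine phosphoribosyltransferase, makes AMP from adenine and can also act on cytokinin bases. It was at 11.18, 11.22 and 11.31 in the 13 °C embryos, against 12.17, 12.10 and 12.11 in the 28 °C embryos. The difference of -0.89 ± 0.08 (SE) was a 1.85-fold lower signal. AdSS (LOC543243), adenylosuccinate synthetase, catalyses the first step from IMP to AMP. It was at 10.13, 10.17 and 10.05 in the 13 °C embryos, against 10.85, 10.80 and 10.82 in the 28 °C embryos. Its difference was -0.70 ± 0.08 (SE), a 1.63-fold lower signal, and its SDs of 0.06 at 13 °C and 0.02 at 28 °C were the smallest of the group within each temperature. Differences of this size were less rare: 6.51% of tested probe sets were as low as APT1 or lower, and 8.54% as low as AdSS or lower. Neither of these probe sets carries a suffix for shared or cross-hybridising probes.

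**Figure D2:**
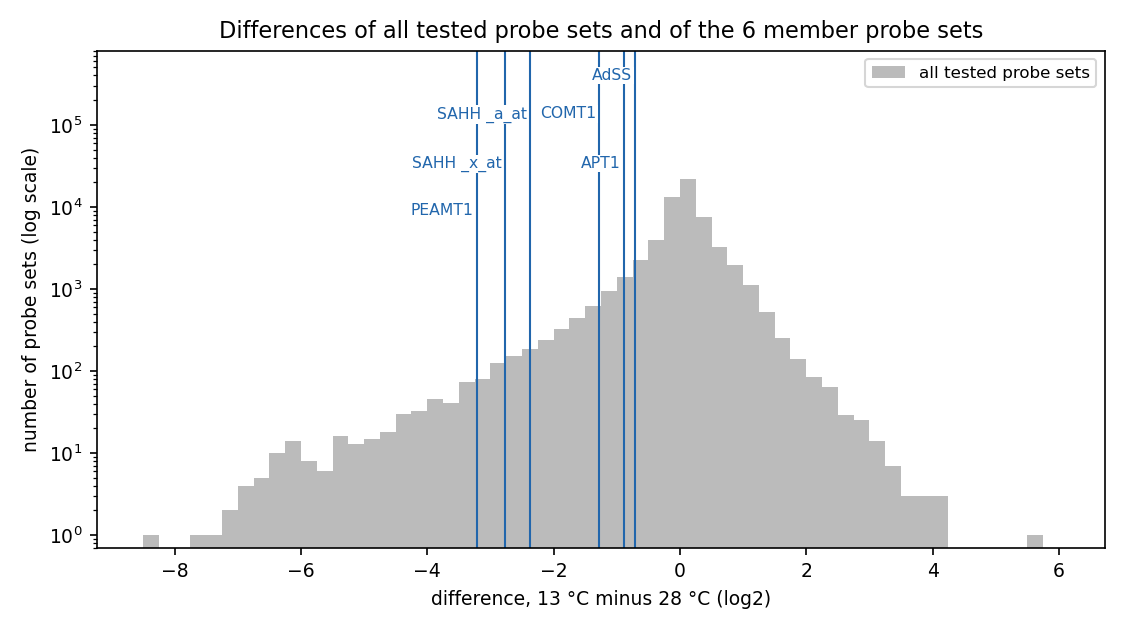
Number of tested probe sets (y axis, log scale) by difference, 13 °C minus 28 °C (log2, x axis, bins of 0.25), with a line at each of the 6 probe sets. PEAMT1 and SAHH lie in the sparse lower tail, while APT1 and AdSS lie on the lower shoulder of the distribution.

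The order of the falls of these probe sets can be read within arrays, where a shift of a whole array cancels. PEAMT1 minus SAHH (_x_at) lay between -5.22 and -4.54 within the 13 °C arrays, against -4.22, -4.46 and -4.32 within the 28 °C arrays. The groups were 0.08 apart at their nearest, so this step in the order was narrow against the spread. COMT1 minus SAHH (_a_at) was -3.87, -3.69 and -3.91 within the 13 °C arrays and -4.93, -4.89 and -4.93 within the 28 °C arrays, so COMT1 fell by 1.09 less than SAHH, with the groups far apart. APT1 minus COMT1 was 3.50, 3.17 and 3.46 within the 13 °C arrays and 2.93 to 3.05 within the 28 °C arrays. APT1 minus AdSS was 1.05, 1.04 and 1.25 within the 13 °C arrays and 1.32, 1.30 and 1.29 within the 28 °C arrays. These last groups came within 0.04 of each other, so APT1 and AdSS differed little beyond their spread. Such a gap compares different probes, so its level carries no meaning, and its shift between the temperatures can depend on the probes too. SAHH (_x_at) minus SAHH (_a_at), both paired with the same gene, shifted by -0.40. PEAMT1 minus SAHH (-0.45) and APT1 minus COMT1 (0.38) shifted by about as much, and APT1 minus AdSS (-0.19) by less. Those gaps thus order probe sets and cannot be read as an order of the genes. All these shifts share the contrast by which the genes were known.

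At 13 °C the genes did not deviate alike between replicates. Array 1 was the lowest for COMT1, APT1 and SAHH (_a_at), array 2 for SAHH (_x_at), and array 3 for PEAMT1 and AdSS. At 28 °C they did, in that array 2 was the lowest on all 6 probe sets. Array 2 was likewise the lowest 28 °C array on 50.6% of the 9213 probe sets lower at 13 °C past the threshold, and on 33.9% of all tested probe sets. The SD was larger at 13 °C than at 28 °C on all 6 probe sets, with a median of 0.11 against 0.08. Over all tested probe sets the median SD was 0.13 at 13 °C and 0.10 at 28 °C.

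Scaling to spiked controls changed the size of the falls more than leaving out arrays did, while scaling to equal medians hardly moved them (PEAMT1 then differed by -3.21 and AdSS by -0.70). With each array shifted to equal hybridisation controls, which moved the median difference of all tested probe sets to -0.56, PEAMT1 differed by -3.84, SAHH by -3.39 (_x_at) and -2.995 (_a_at), COMT1 by -1.90, APT1 by -1.52 and AdSS by -1.33. With poly-A controls the median moved to -0.39, and the differences of APT1, -1.34 ± 0.54, and AdSS, -1.16 ± 0.54 (SE), no longer passed. The SE was the same for every member, 0.33 with hybridisation and 0.54 with poly-A controls. Whether a member passed there thus turned on the size of its difference, not on its own spread between replicates. Each control scaling adds the same shift to every gene, so relative to the median the differences stay those of the deposited values. The deposited values gave 55.1% of all calls as higher at 13 °C, against 5.25% with hybridisation and 6.63% with poly-A control scaling. Array 1 at 13 °C had the brightest hybridisation controls (12.07) and array 2 the widest 3-prime minus 5-prime value for sucrose synthase (7.91). Without these arrays only array 3 is left at 13 °C, so that fit holds no spread between 13 °C arrays. PEAMT1 then differed by -3.52, SAHH by -2.64 (_x_at) and -2.30 (_a_at), COMT1 by -1.29, APT1 by -0.82 and AdSS by -0.77.

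**Figure D3:**
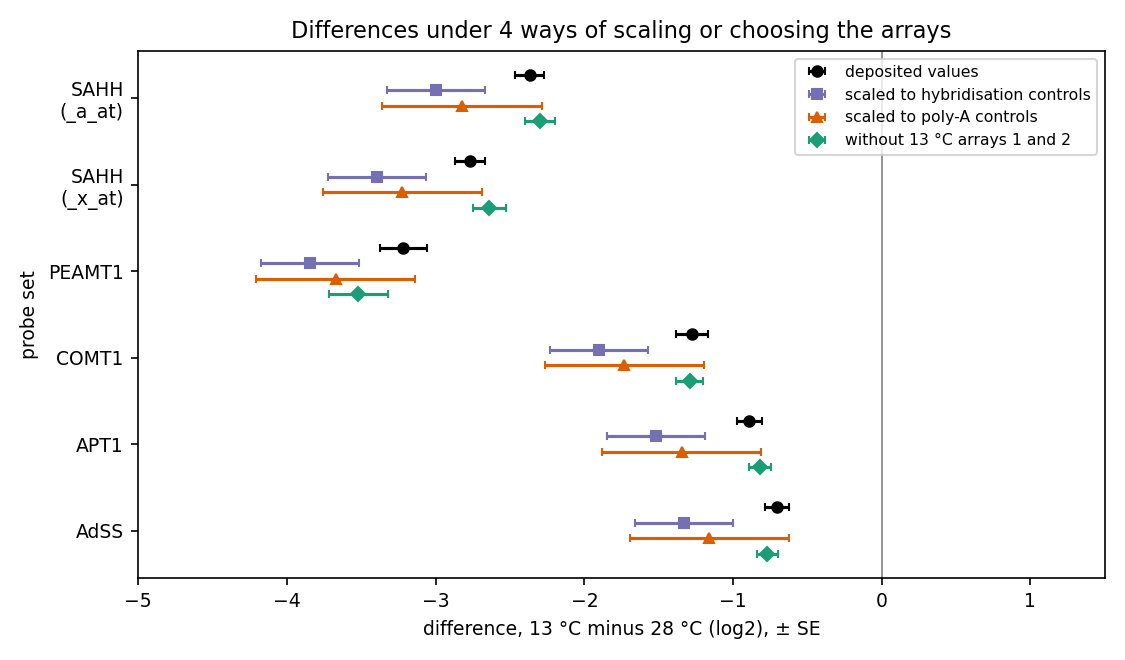
Difference, 13 °C minus 28 °C (log2, x axis), with its SE, for the 6 probe sets (y axis) with the deposited values, with both control scalings and without 13 °C arrays 1 and 2. All points lie below 0, and the SE grows from 0.08 to 0.54 for AdSS under poly-A scaling.

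Probe sets whose identifiers share a cluster number were designed from the same cluster of expressed sequences. PEAMT1 and COMT1 each had 1 more such probe set, paired with no gene in the annotation and looked up after the values had been seen. The one beside COMT1 was at 6.69, 7.40 and 6.89 in the 13 °C embryos, against 8.62, 8.51 and 8.52 in the 28 °C embryos, a fall of the same order (-1.56 ± 0.17 SE, adjusted p = 9.04e-05 in limma, at most 0.00884 over the alternatives). Its 13 °C arrays stood in the same order as those of COMT1, with array 1 lowest and array 2 highest. Its 28 °C arrays did not: array 2 was lowest for both, but array 3 was highest for COMT1 and array 1 for the unpaired probe set. The one beside PEAMT1 was at 12.13, 11.99 and 12.11 in the 13 °C embryos, against 11.82, 11.80 and 11.82 in the 28 °C embryos. It was thus slightly higher at 13 °C without overlap, as were 25.6% of tested probe sets, with a difference of 0.26 ± 0.08 (SE, adjusted p = 0.0409 in limma, 0.00446 to 0.842 over the alternatives). That call was lost with the replicate number as a block and without any 1 of 5 of the arrays (0.23 to 0.31 over the 6 removals). The sign turned with both control scalings (-0.37 and -0.19). Without 13 °C arrays 1 and 2 the difference of this probe set was 0.30. Within arrays it exceeded PEAMT1 by 5.78, 5.76 and 6.28 at 13 °C, against 2.25, 2.68 and 2.46 at 28 °C. The other probe set of the cluster thus did not share the large fall of PEAMT1.

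**Figure D4:**
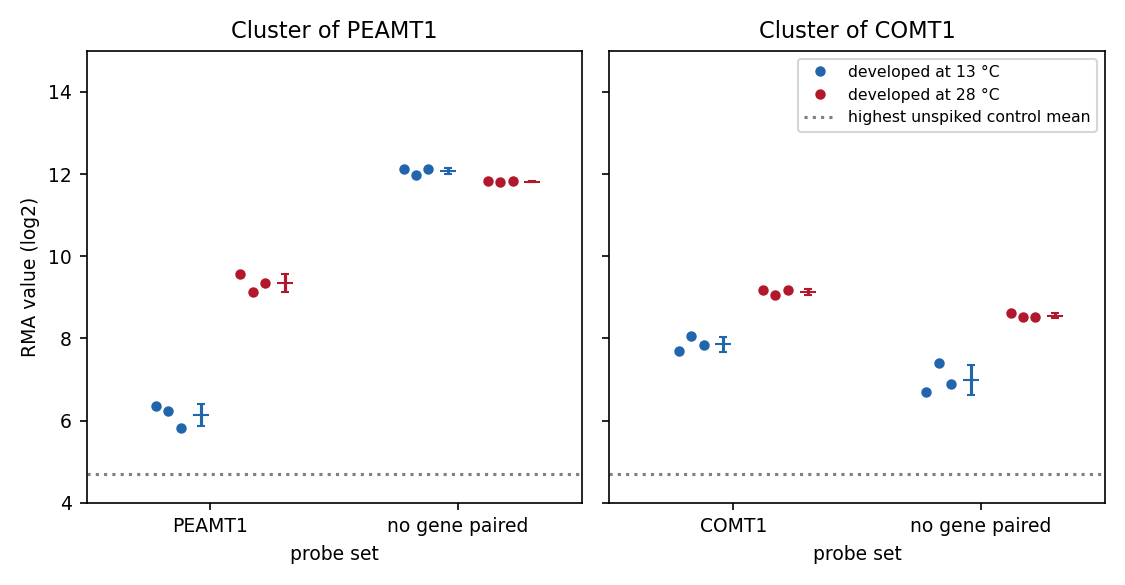
RMA values (log2, y axis) on each array, with mean and SD (n = 3), of the probe sets of the PEAMT1 and COMT1 clusters (x axis), 13 °C to the left of 28 °C. The unpaired probe set beside PEAMT1 lies near 12 at both temperatures, and the one beside COMT1 is lower at 13 °C as COMT1 is.

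Few other genes of these pathways carried a name. The list of methyl cycle enzymes and methyltransferases held 3 probe sets, PEAMT1, COMT1 and PIMT, of which 2 were lower and 1 was higher past the threshold (median difference -1.27). The names of that list did not include SAHH, whose 2 probe sets, both lower past the threshold, are not in this count. PIMT (LOC543193), which methylates damaged aspartyl residues of proteins so that they can be repaired, went the other way. It was at 9.37, 9.53 and 9.59 in the 13 °C embryos, against 7.07, 7.49 and 7.09 in the 28 °C embryos, a difference of 2.27 ± 0.13 (SE), or 1.65 and 1.82 with the hybridisation and poly-A scalings. The purine list held APT1 and AdSS, both lower, and 0 others. Lists for polyamine, ethylene and nicotianamine synthesis, for choline and glycine betaine, and for lignin synthesis matched no name and were not analysed here.

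The named genes with the most similar profiles were ranked by Euclidean distance between mean-centred log2 values over the 6 arrays, among 194 other named probe sets, keeping for each member the nearest probe set of any gene. Since the temperatures dominate such a profile, the ranking mostly groups genes by the size of their fall. Nearest to SAHH (_a_at) were the fructan exohydrolases 6-FEH (distance 0.47, difference -2.06) and 1-FEH (0.49, -2.07), then the histone gene wcH2B-8 (0.52, -2.03). The 6-FEH signal at 13 °C, 4.08, was below the highest unspiked control, so the size of its fall is uncertain. Nearest to PEAMT1 were the histone H2B genes wcH2B-8 (0.59, -2.77, on another of its probe sets than the one beside SAHH) and wcH2B-6 (0.68, -2.80), then XTH, a xyloglucan endotransglucosylase (0.86, -2.69). COMT1 had closer neighbours, namely the beta-tubulin tubb3 (0.17, -1.36), profilin (0.20, -1.14) and XIP-I (0.27, -1.21). APT1 lay next to the beta-tubulin Tubb4 (0.16, -0.89), the translation initiation factor gene Eif4B (0.21, -0.88) and GSTZ1, a glutathione transferase (0.26, -1.07). AdSS lay next to TSA (0.20, -0.58), the plasma membrane proton pump gene ha1 (0.20, -0.62) and the beta-tubulin Tubb5 (0.23, -0.57).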

How the data were processed

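RNA from 6 wheat embryo samples was hybridised to the 1-colour Affymetrix wheat array. Per the submitters' processing notes, the authors summarised probes into log2 levels with RMA and deposited those. Its version and the set of arrays it was run on: not given in the sources used here. Quantile normalisation equalises the arrays, so changes of total RNA cannot be read. RMA gives no detection call, and the number of arrays limits the precision. The labels call the replicates biological but name no separate plants or seed lots, so the error measures may be partly technical. No batch is given.

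Of 61290 probe sets, 111 control probe sets were left out and 61179 were fitted with limma 3.58.1 (R 4.3.3; lmFit and eBayes, 2 groups, no covariate, two-sided, Benjamini-Hochberg over all of them, threshold 0.05). The script was tested on simulated data. Tables used Python 3.11.15, numpy 2.4.6 and pandas 2.3.3. The platform's old annotation paired 1273 probe sets with 1 gene, 0 with several and left the rest unnamed here. Of these, 1272 matched the RefSeq gene table of IWGSC CS RefSeq v2.1, used for names only, which gave 200 probe sets an informative name. The array names no build, so no positions are given, and no sequences were used here. Short probes do not separate the near-identical copies of a gene in the wheat subgenomes.

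The members and lists were chosen with earlier results of these data known. Named genes were all members, up to 3 per pathway list and the 3 nearest named profiles per member gene. A name match of WGA to the gibberellin oxidase synonym wga20 was dropped. Alternatives were 3 scalings, a filter and a floor at the highest unspiked control, trended and robust eBayes, leaving out suffixed probe sets, a replicate block, leaving out each array, and leaving out 13 °C arrays 1 and 2, the last chosen after seeing the data.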

Additional observations from a re-analysis of the deposited data

How the results depend on the processing

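In the 16 alternatives every value of the 6 member differences stayed negative. Among alternatives that left more than 1 array per temperature, only APT1 (-1.34) and AdSS (-1.16) with poly-A control scaling did not pass. Each SE grew to 0.54 there, the same for every member, so it does not measure a member's own spread. All 6 members were lower past the threshold in the other such alternatives that kept them. Leaving out suffixed probe sets kept only APT1 and AdSS, and 2 of 2 passed. Over all probe sets 20517 passed, 12469 with hybridisation control scaling, 3002 with poly-A control scaling, and 16474 to 19571 without any 1 array. The size of both control shifts depends on which 13 °C arrays are taken. Without array 1 the difference was 0.36 for hybridisation and 0.06 for poly-A controls, against 0.63 and 0.46 with it. The poly-A controls were at 9.57, 7.82 and 8.95 on the 13 °C arrays, against a mean of 8.33 at 28 °C. Array 2 thus lay below that mean and pulled the other way, so the poly-A shift is poorly determined. Only the removal of array 1 was worked out for the controls. The unpaired probe set of the PEAMT1 cluster turned from 0.26 to -0.37 and -0.19 with the hybridisation and poly-A scalings. Without 1 array PEAMT1 differed by -3.33 to -3.07, SAHH by -2.83 to -2.71 and -2.42 to -2.30, COMT1 by -1.37 to -1.19, APT1 by -0.93 to -0.86 and AdSS by -0.73 to -0.67.

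Deviations of same-numbered arrays correlated at 0.04, 0.01 and 0.02 across probe sets, against -0.11 to 0.09 for arrays of different numbers. No pairing by replicate number was thus seen, and a shared batch or seed lot was not tested. With the replicate number as a block 20226 probe sets passed, the 6 members among them, and PEAMT1 differed by -3.22 ± 0.13 (SE).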
